A study of Saccharomyces cerevisiae with 8 samples.

Results

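The genes described here encode proteins of the cytosolic ribosome of budding yeast (Saccharomyces cerevisiae). They were chosen by symbol, as array features annotated with a single gene symbol of the form RPL, RPS or RPP followed by a number and, where there is one, the letter A or B. This gave 59 of 6912 features and 49 of 3127 named genes: 23 of the small (40S) subunit, 24 of the large (60S) subunit and 2 of the acidic stalk. The pattern would also take in RPP1, a subunit of RNase P, but no feature carried that symbol alone. A further 47 features list a ribosomal protein gene together with other genes, 18 of them ribosomal protein genes only, and were left unnamed.

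Cells lacking YAP1 (yap1d), which encodes a transcription factor of the oxidative stress response, were compared with wild type (WT) in the haploid laboratory strain backgrounds BY4742 (mating type alpha) and BY4741 (mating type a). All cultures grew in YPD, a rich medium, until the optical density reached 0.5, and then received hydroxyurea, which blocks ribonucleotide reductase, at 200 mM for 2 h. Every yap1d and WT culture therefore carried the drug, and the values compare genotypes under it. Each background had 2 spotted slides that carried yap1d and WT RNA in opposite channels. The 2 columns of a slide, named fort and faible (French for strong and weak), were treated as scans of it. Both backgrounds are related strains that carry auxotrophic deletions, and the labels do not say whether a deletion strain was 1 clone or whether its slides hold RNA of separate cultures. Because both channels of a slide hold the same background and the values are ratios, the markers of mating type or auxotrophy cannot check the labelled strain by their level. As ratios of yap1d over WT, the alpha pheromone gene MF(ALPHA)2 was at -1.55 in BY4742 and 0.05 in BY4741, and the a pheromone gene MFA1 was at 0.11 in BY4742 and -0.64 in BY4741. MFA2, the other a pheromone gene, was at 0.16 and -0.615, and the alpha-specific STE3 at -0.38 and -0.01, in the same order. The other alpha pheromone gene, MF(ALPHA)1, did not follow MF(ALPHA)2, at -0.04 in BY4742 and -0.205 in BY4741. The auxotrophy markers MET17 (0.06 and 0.03) and LYS2 (-0.00380 and 0) had means near 0, in which slide values of opposite sign cancelled. MET17 was at 0.43 and -0.315 on the BY4742 slides and at -0.705 and 0.765 on the BY4741 slides. LYS2 was at -0.20 and 0.195 on the BY4742 slides and at 0.355 and -0.355 on the BY4741 slides.

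Ribosomes of yeast consist of a 40S subunit, which reads the mRNA, and a 60S subunit, which joins amino acids. Most ribosomal proteins are encoded by a pair of near-identical genes, the A and B copies. Their mRNAs are among the most abundant of growing cells, and their transcription through Rap1, Fhl1 and Ifh1 follows nutrient signals of the TOR and protein kinase A pathways and drops under many stresses.

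The authors deposited a log ratio of both channels for every feature, taken as log2 because no label names the base. They were centred on the median of each column. The channel on top was not given, so the sign was set such that the Yap1 targets TRX2 (-1.29 in BY4742 and -1.84 in BY4741) and TRR1 (-0.998 as the mean of both) were lower in yap1d. The direction is therefore only likely, and if it is wrong every sign of yap1d over WT below turns. A value for a background is the mean of its 2 slides after turning, so that an effect of the channel cancels only where it is equally large on both slides. The number of arrays limits the precision.

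Before turning, nearly all ribosomal protein genes lay on the same side on all 4 slides. In BY4742 the median ratio of the 49 genes was 0.52 on slide 21, with yap1d in channel 1, and 0.64 on slide 22, with yap1d in channel 2. In BY4741 it was 0.35 on slide 19, with yap1d in channel 1, and 0.84 on slide 20, with yap1d in channel 2. The numbers of genes above 0 were 46, 46, 44 and 48 in the same order, against a median of all units near 0 on each slide. In both backgrounds the slide with yap1d in channel 1 was the lower, and slide 19 stood furthest down.

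**Figure D1:**
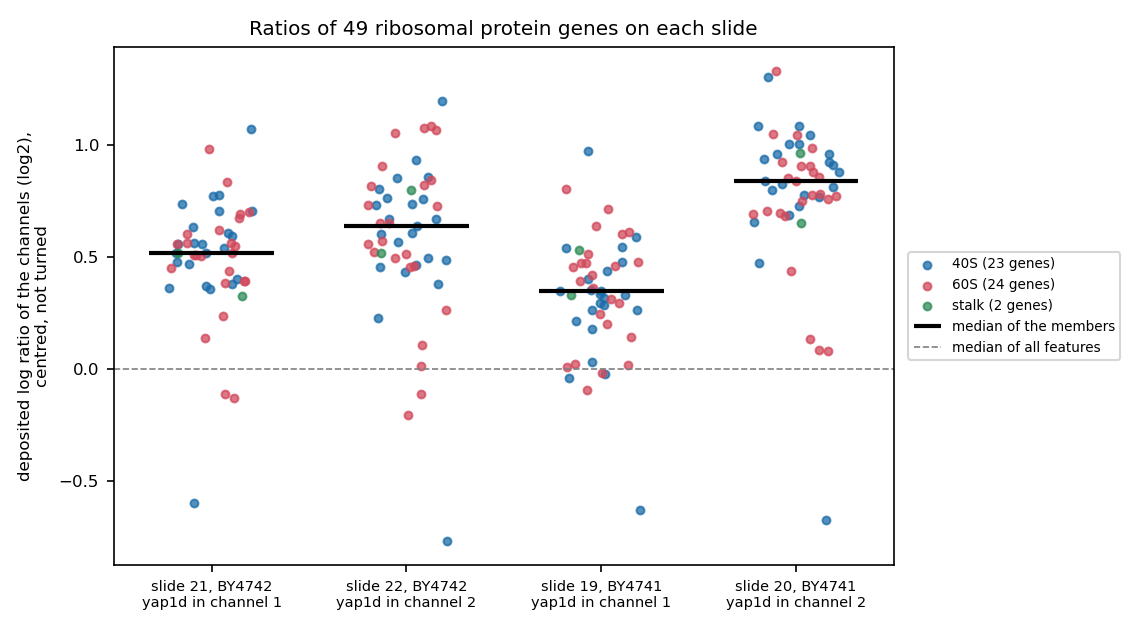
Deposited log ratio (log2, centred on the column median, mean of 2 scans, not turned) of each of the 49 ribosomal protein genes on the 4 slides, with points coloured by subunit and a bar at the median. The medians are 0.52 and 0.64 on the BY4742 slides and 0.35 and 0.84 on the BY4741 slides, and RPS9B lies below 0 on all of them.

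The part of a ratio that stays when the channels are exchanged, the channel effect, was positive for 47 of the 49 genes, with a median of 0.60 (quartiles 0.49 and 0.67). Over all 6695 units (named genes, and features left unnamed) the median was 0.01 and the quartiles were -0.36 and 0.32. With limma on the 4 slides, 46 of 49 passed an adjusted p of 0.05, 45 of them above 0, where 67.5% of all units passed and 33.2% passed above 0. RPS2, a 40S protein at the mRNA entry site known for its part in decoding accuracy, had the largest channel effect of the members (1.14 ± 0.0770, SE), with RPL33B (0.997) and RPL4B (0.80) next. RPS2 read 1.07 and 1.20 on slides 21 and 22 of BY4742 and 0.97 and 1.30 on slides 19 and 20 of BY4741, so all 4 slides were high. The median channel effect was thus larger in size than the lowest mean of yap1d over WT among the members, -0.31, which is described next.

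After turning, the ribosomal protein genes had small values that lay mostly on the lower side. Of 49 genes, 47 had a mean below 0 in yap1d over WT, against 48.3% of all units. The median was -0.15 (quartiles -0.18 and -0.09), a 1.11-fold lower level in yap1d, and the range ran from -0.31 to 0.07. No gene passed alone: with limma on the 2 background means, 0 of 49 reached an adjusted p of 0.05, where 1.75% of all units did (1.21% lower and 0.538% higher). At an unadjusted p of 0.05, 4 of the 49 passed, against 7.50% of all units. The fit of the 4 slides with a channel term also called 0 of 49, against 1.09% of all units, and 11 of the 49 had an unadjusted p under 0.05, against 9.62%. The smallest mean called in any unit was 0.36 in size, and each mean had an SE of 0.108, so shifts of this size in single genes were not detectable here. In these bulk cultures, fewer mRNAs per cell and a smaller share of the extracted RNA cannot be told apart.

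The 40S genes had a median of -0.17 over 23 genes, the 60S genes -0.12 over 24 genes and the stalk genes -0.15 over 2 genes, with 22, 23 and 2 below 0. For 28 of 49 genes, every slide with yap1d in channel 1 read below every slide with yap1d in channel 2, which is the direction of a lower level in yap1d, and 18.7% of all units did so. The reverse order was found for 1 of 49 genes, RPS9B, which has 1 feature, and for 21.1% of all units. These counts share the same 4 slides, so the genes are no independent observations.

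RPL10, a 60S protein that joins late in assembly near the peptidyl transferase centre, had the lowest mean. Its ratios were 0.51 and 0.85 on slides 21 and 22 of BY4742 and 0.14 and 1.05 on slides 19 and 20 of BY4741. The slides with yap1d in channel 1 did not overlap those with yap1d in channel 2. Yap1d over WT was -0.17 in BY4742 and -0.46 in BY4741, with a mean of -0.31 ± 0.202 (SD, n = 2), which is 1.24-fold lower (limma adjusted p = 0.149, and 0.190 in the fit of 4 slides).

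RPL17B, whose product lines the exit tunnel of the nascent peptide, was next at -0.25 ± 0.137 (SD, n = 2; limma adjusted p = 0.424). It read 0.39 and 1.08 on the BY4742 slides and 0.60 and 0.91 on the BY4741 slides. Unlike RPL10, it was further down in BY4742 (-0.35) than in BY4741 (-0.15). RPL30, which encodes a 60S protein that binds its own transcript and holds back its splicing, averaged -0.24 ± 0.255, with -0.06 in BY4742 and -0.42 in BY4741. Its lowest ratio was on slide 19 (0.02), against 0.62 to 0.86 on the other slides, and its mean was -0.09 without slide 19 and -0.39 without slide 21. RPS7B, a 40S gene, averaged -0.24 ± 0.0963, with -0.17 in BY4742 and -0.30 in BY4741, and its slides did not overlap by orientation. These 4 genes, RPL10, RPL17B, RPL30 and RPS7B, were those with an unadjusted p under 0.05.

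The next genes in the order were RPS21A (-0.21 ± 0.321), RPS19B (-0.20 ± 0.0468), RPL33B (-0.20 ± 0.229) and RPS12 (-0.20 ± 0.289), with limma adjusted p-values of 0.688 to 0.744. Neighbours in this order did not differ beyond their spread, and the order rests on single slides. Without slide 19 the means were -0.08 for RPS21A, -0.18 for RPS19B, -0.11 for RPL33B and -0.07 for RPS12. Without slide 20 they were -0.11 for RPS21A, -0.13 for RPL33B and -0.11 for RPS12, and without slide 21 they were -0.34 for RPS21A and -0.32 for RPS12. All of these stayed below 0, and RPS19B was between -0.22 and -0.18 whichever slide was left out. RPS21A read 0.47 and 0.44 on the BY4742 slides and -0.04 and 0.83 on the BY4741 slides, so its mean rests on BY4741. RPS19B, a 40S gene needed for maturation of the small subunit rRNA, was nearly alike in both backgrounds, at -0.17 in BY4742 and -0.23 in BY4741. RPS19B and RPS12 each held an exact 0 in the faible column of slide 19, the only exact zeros among the members.

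**Figure D2:**
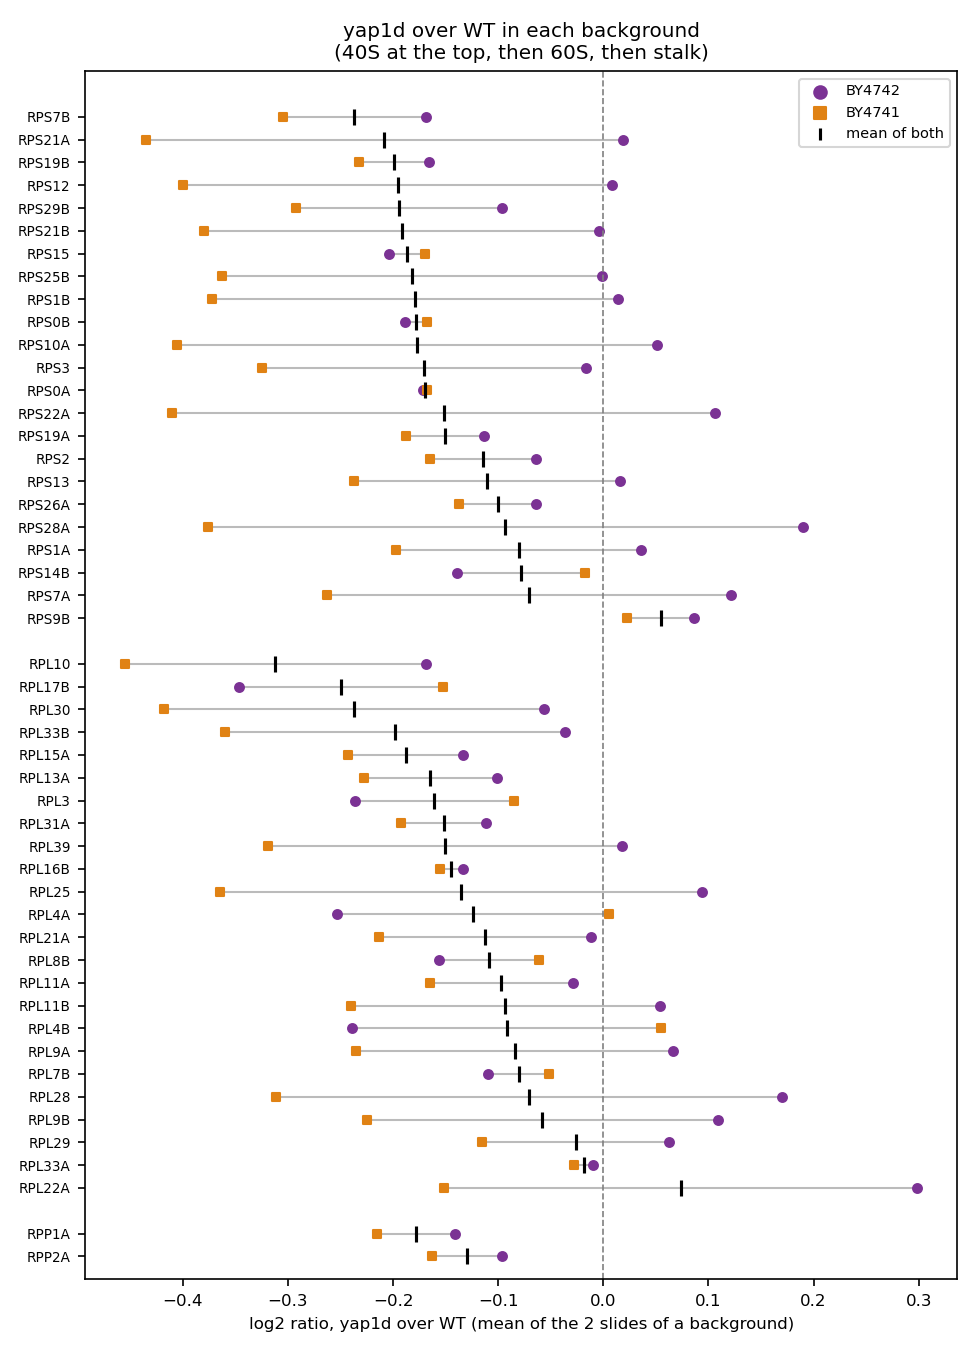
Log2 ratio of yap1d over WT for each gene in BY4742 (circle), in BY4741 (square) and their mean (bar), with 40S genes on top, then 60S and stalk genes, each sorted by mean. In BY4742 31 genes lie below 0, in BY4741 46 do, and the grey lines show how far apart the backgrounds are.

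At the other end of the order stood RPL22A (0.07 ± 0.318), RPS9B (0.05 ± 0.0451), RPL33A (-0.02 ± 0.0124), RPL29 (-0.03 ± 0.125) and RPL9B (-0.06 ± 0.236), all with a limma adjusted p of 0.994. RPS9B, a 40S gene known for its part in decoding accuracy, read -0.60 and -0.77 on the BY4742 slides and -0.63 and -0.68 on the BY4741 slides. It was thus the member with a strongly negative channel effect (-0.67). RPS9B has 1 feature, and whether the annotation of that feature is right was not checked. Member features of a negative channel effect were left out in a setting chosen after the values were seen. RPS9B then dropped out, and 47 of 48 genes were below 0. Of the 5 genes at this end, RPL22A, RPL33A and RPL29 have 2 features each, and the features of a gene differed.

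The backgrounds differed in how far the ribosomal protein genes were shifted. The median of yap1d over WT was -0.04 in BY4742 (quartiles -0.14 and 0.04) and -0.225 in BY4741 (quartiles -0.32 and -0.16), against 0.01 and -0.00250 for all units. In BY4742 31 of 49 genes were below 0 (46.2% of all units), and in BY4741 46 of 49 were (50.6% of all units). Both backgrounds were below 0 for 29 genes (23.6% of all units). A further 17 genes (34.7%) were below 0 in BY4741 only, not far from the 27.0% of all units. RPL4A and RPL4B were so in BY4742 only (22.6% of all units), and RPS9B was above 0 in both (26.8% of all units at or above 0).

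No gene passed the test of the difference itself, BY4742 minus BY4741, with limma on the 4 slides (0 of 49, and 0% of all units), while 16 of 49 had an unadjusted p under 0.05, against 11.5% of all units. This test has 1 residual degree of freedom. It takes the 4 slides as replicates, though the labels do not say whether slides of a background hold separate cultures. Its p-values may therefore measure technical spread between slides. The differences were largest for RPS28A, a small 40S protein, at 0.57 ± 0.132 (SE), for RPS22A at 0.52 and for RPL28, known for mutations that give cycloheximide resistance, at 0.48, all 3 with a limma adjusted p of 0.301. RPS28A was at 0.19 in BY4742 and -0.38 in BY4741, RPS22A at 0.11 and -0.41, and RPL28 at 0.17 and -0.31. In the faible columns alone 5 of 49 genes passed for the difference between backgrounds, where 2.64% of all units did: RPS22A, RPS28A, RPL28, RPL25 and RPS1A, by 0.48 to 0.54 (limma adjusted p 0.0148 to 0.0321). In the fort columns alone 0 of 49 passed. For RPS1A the difference was 0.23 with both scans averaged, and on slide 20 its deposited ratio was 0.83 in the faible and 0.03 in the fort column.

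Across the 49 genes the effects in BY4742 and BY4741 ran in opposite order (Pearson r = -0.37, Spearman rho = -0.40), while across all units r was 0.27. These values describe genes that share the same slides, and no test is attached to them. RPL25, the docking site of factors at the tunnel exit, was at 0.09 in BY4742 and -0.36 in BY4741. RPL3, a protein of the peptidyl transferase centre, was at -0.24 in BY4742 and -0.08 in BY4741. RPS3, at the mRNA entry site, was at -0.02 in BY4742 and -0.32 in BY4741. RPS14B, a 40S protein needed for assembly of the subunit, was at -0.14 in BY4742 and -0.02 in BY4741.

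The ribosomal protein genes of the stalk, which recruits elongation factors, were RPP1A (-0.14 in BY4742 and -0.21 in BY4741) and RPP2A (-0.10 in BY4742 and -0.16 in BY4741). RPP1A read 0.52 and 0.80 on the BY4742 slides and 0.54 and 0.97 on the BY4741 slides. RPP2A read 0.33 and 0.52 on the BY4742 slides and 0.33 and 0.65 on the BY4741 slides. In both genes the slides with yap1d in channel 1 lay below those with yap1d in channel 2, and neither passed (limma adjusted p = 0.834 and 0.994).

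**Figure D3:**
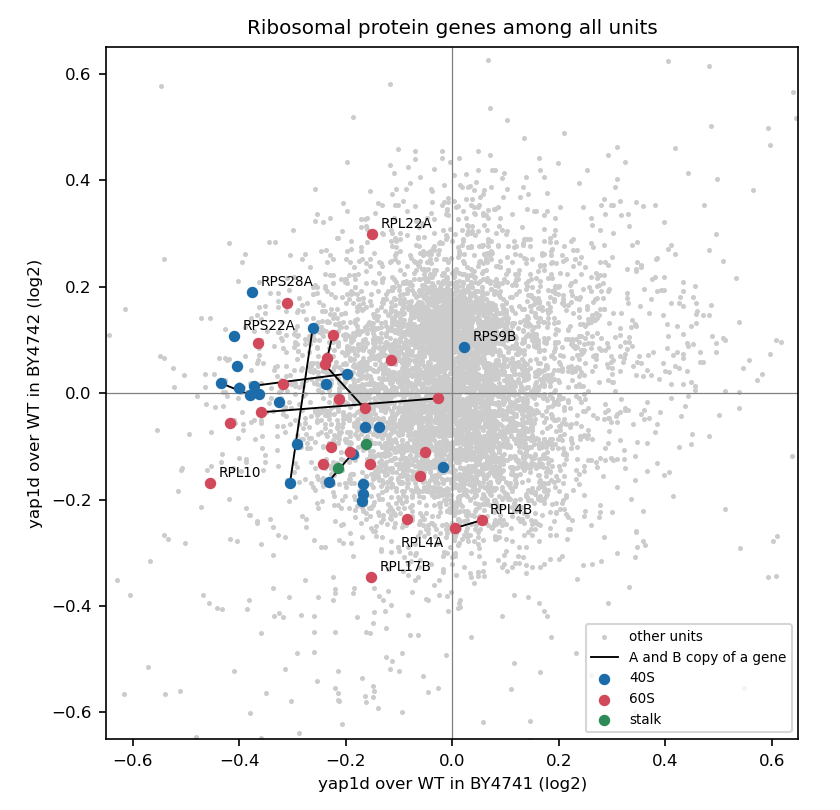
Log2 ratio of yap1d over WT in BY4742 (vertical axis) against BY4741 (horizontal axis) for the ribosomal protein genes (coloured by subunit) and all other units (grey), with lines joining A and B copies; 62 units lie outside the axes. The genes spread from RPS28A and RPS22A at the upper left to RPL4A and RPL4B below the centre.

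For 9 ribosomal proteins both the A and the B copy were measured, each by features of its own. Copies share most of their sequence, so RNA of a copy may bind the feature of the other, and single copies are uncertain. The copies lay close together: their means differed by a median of 0.03, against 0.07 over all 1176 pairs of members. RPS0A and RPS0B, 40S proteins related to a laminin receptor of animals, were at -0.17 and -0.19 in BY4742 and both at -0.17 in BY4741. RPL4A and RPL4B, 60S proteins with a loop in the exit tunnel, were at -0.25 and -0.24 in BY4742 and at 0.01 and 0.06 in BY4741. RPL4A and RPL4B thus shared the pattern of a lower value in BY4742 only, which no other member showed, while 22.6% of all units did.

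RPS21A and RPS21B were at 0.02 and -0.00380 in BY4742 and at -0.43 and -0.38 in BY4741. RPL9A and RPL9B were at 0.07 and 0.11 in BY4742 and at -0.24 and -0.23 in BY4741. RPL11A and RPL11B, which bind 5S rRNA, were at -0.03 and 0.05 in BY4742 and at -0.17 and -0.24 in BY4741. RPS19A and RPS19B were at -0.11 and -0.17 in BY4742 and at -0.19 and -0.23 in BY4741. In RPS21, RPL9 and RPL11 the copies of a pair were closer to each other within a background than either copy was between the backgrounds.

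The copies were further apart in 3 pairs. RPL33A and RPL33B had means of -0.02 and -0.20, and their channel effects differed by 1.03. RPS7A and RPS7B had means of -0.07 and -0.24, with 0.12 and -0.17 in BY4742 and -0.26 and -0.30 in BY4741. RPS1A and RPS1B had means of -0.08 and -0.18, with 0.04 and 0.01 in BY4742 and -0.20 and -0.37 in BY4741. The value of RPS1A is uncertain: on slide 20 its deposited ratio was 0.03 in the fort column and 0.83 in the faible column, the largest gap between scans among the members.

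Of the 49 genes, 10 had 2 features on the array, and some of these features did not read alike (the genes named for this were chosen after their values were seen). RPL8B and RPL39 had features within 0.01 of each other in yap1d over WT, at -0.11 and -0.10 and at -0.15 and -0.16. The features of RPL21A had channel effects of -0.48 and 0.96 and were at -0.03 and -0.20 in yap1d over WT. Those of RPL29 had channel effects of -0.46 and 0.56 and were at 0.08 and -0.13. Those of RPL7B had channel effects of 0.33 and -0.30 and were at -0.20 and 0.03. Where the channel effect of a feature was negative, its difference between yap1d and WT was nearer to 0 or above it, and averaging brought the gene towards 0. RPL33A had channel effects of -0.16 and 0.09 and values of 0.01 and -0.05.

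RPL22A, which encodes a 60S protein, had the highest mean because of 1 feature on 1 slide. Its first feature read 0.48 and -0.97 on slides 21 and 22 of BY4742 and 0.34 and 0.71 on slides 19 and 20 of BY4741. The second feature read 0.31 and 0.57 on the BY4742 slides and 0.61 and 0.84 on the BY4741 slides. Without the first feature, an alternative chosen after the values were seen, RPL22A was at -0.13 in BY4742 and -0.12 in BY4741, with a mean of -0.12 in place of 0.07, and 48 of 49 genes were below 0. RPS28A showed a smaller gap on slide 22, where its features read 0.04 and 0.41, so its positive value in BY4742 came mainly from the first feature (0.30, against 0.08 for the second).

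**Figure D4:**
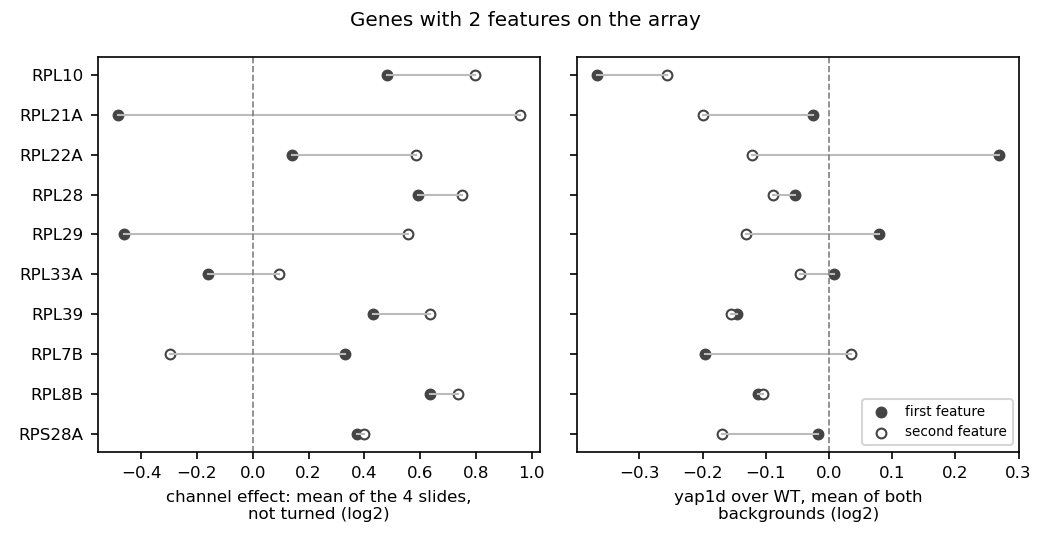
Channel effect (left) and yap1d over WT (right), both in log2, for the 2 features of each of 10 ribosomal protein genes, joined by a line. RPL21A, RPL29, RPL33A and RPL7B have features with channel effects of opposite sign, and the features of RPL22A are at 0.27 and -0.12 in yap1d over WT.

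The spread of the slides moved with these results. The median absolute deviation of all units was 0.43 on slide 21 and 0.59 on slide 22 of BY4742, and 0.53 on slide 19 and 0.61 on slide 20 of BY4741, so in both backgrounds it was smaller on the slide with yap1d in channel 1. Over all units, yap1d over WT ran against the channel effect (Pearson r = -0.37 in BY4742 and -0.14 in BY4741). Across the 49 genes r was -0.30 in each background. How much of the channel effect remained in the background means was not tested. When the columns were scaled to 1 spread, the median of the 49 genes was -0.08 in place of -0.15, with 0.03 in BY4742 and -0.18 in BY4741, and 44 of 49 genes were below 0. It was -0.09 after quantile normalization, and also -0.09 after a line on the channel effect was subtracted in each background, which was tried only once the values were known. Without slide 19 the median was -0.09 as well. In the 3 settings of scaling, quantile normalization and the line, the median of BY4742 was above 0 (0.01 to 0.03) and that of BY4741 was -0.20 to -0.18. How far the spread of the slides makes up the shift was not tested beyond these settings.

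Genes of mitochondrial ribosomal proteins, which work in another compartment, had a median of -0.02 in BY4742 and -0.12 in BY4741 over 48 genes, with 40 of 48 below 0 in the mean and none called, from RSM10 (-0.24 ± 0.257) to MRPL37 (0.12 ± 0.0592). Their channel effect had a median of 0.02, against 0.60 for the cytosolic genes. The 18 unnamed features that list only cytosolic ribosomal protein genes had a median of -0.01 in BY4742 and -0.14 in BY4741, with 16 of 18 below 0 and a median channel effect of 0.63. Glycolytic genes, as other abundant mRNAs, had a channel effect like that of the ribosomal protein genes (median 0.66) and values of the other order: -0.06 in BY4742 and 0.08 in BY4741 over 12 genes. Of these, 0 of 12 were lower in BY4741 than in BY4742, against 39 of 49 ribosomal protein genes and 54.6% of all units. None of the glycolytic genes was called, PGI1 being highest (0.13 ± 0.125) and TDH1 lowest (-0.04 ± 0.0133), and the median of their means (0.015) lay between -0.05 and 0.08 over 6 alternatives.

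No gene of the other translation lists passed in limma. Of 29 translation initiation genes 19 were measured, with a median of -0.06 in BY4742 and -0.01 in BY4741. Lowest was PRT1, a subunit of initiation factor eIF3 (-0.18 ± 0.0698), and highest was TIF4632, an eIF4G gene (0.17 ± 0.0928). Among 5 measured genes of elongation and termination, RLI1, which encodes the factor that splits ribosomes after termination, was lowest (-0.27 ± 0.0115, limma adjusted p = 0.320) and ANB1, the eIF5A gene of oxygen-poor cells, highest (0.21 ± 0.0486). Of 17 measured ribosome-associated proteins, RBG2, a GTP-binding protein, was highest (0.33 ± 0.225, limma adjusted p = 0.112) and NAT5, of an acetyltransferase at the ribosome, lowest (-0.11 ± 0.261). The lists share the 4 slides with the ribosomal protein genes, and the differences between lists were not tested.

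Regulators of the ribosomal protein genes were measured in 11 of 21 cases, without FHL1, IFH1 or SFP1, which were not analysed here. Their median was -0.06 in BY4742 and -0.08 in BY4741, and none was called. HMO1, a high mobility group protein bound at many of these promoters, was lowest (-0.21 ± 0.171, with -0.33 in BY4742 and -0.09 in BY4741; limma adjusted p = 0.653). RAP1, the factor that binds most ribosomal protein promoters, was at -0.09 ± 0.0415, and TOR1, a kinase of the nutrient pathway, at -0.16 ± 0.116. LST8, a subunit of the TOR complexes, was highest (0.12 ± 0.264). Of 14 chaperones and import factors of ribosomal proteins 6 were measured, with YAR1, the chaperone of Rps3, highest (0.25 ± 0.239) and TSR4 lowest (-0.13 ± 0.114). Of 11 RNase P and MRP subunits 8 were measured, from RMP1 (-0.05 ± 0.234) to POP7 (0.19 ± 0.102), and none was called.

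**Figure D5:**
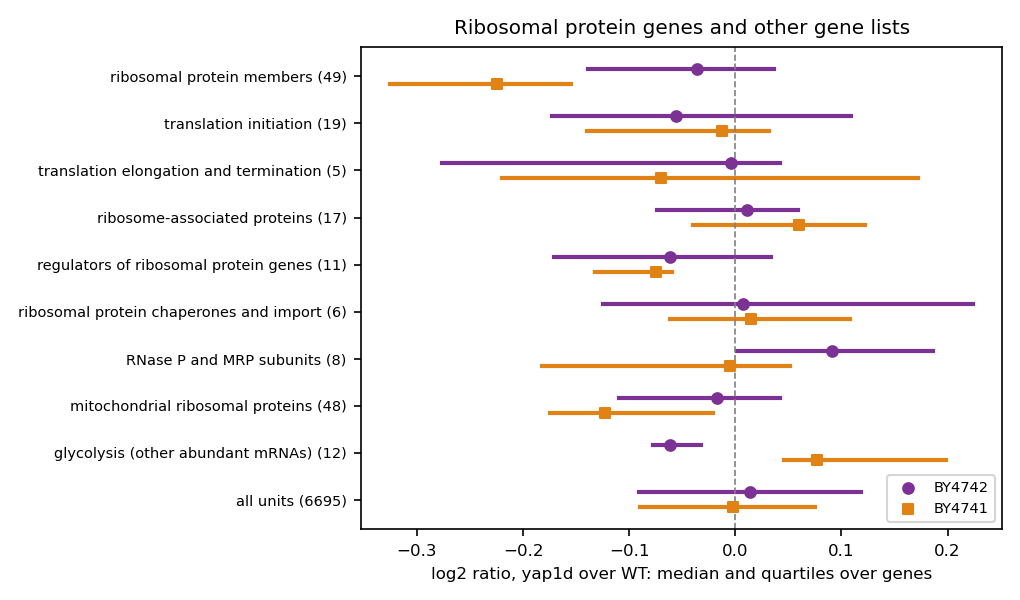
Median (marker) and quartiles (line) over genes of the log2 ratio of yap1d over WT in BY4742 (circle, upper) and BY4741 (square, lower), for the 49 ribosomal protein genes on top, other gene lists and all units at the bottom, with the number of genes in brackets. The ribosomal protein genes lie at -0.04 in BY4742 and -0.225 in BY4741, and the glycolytic genes at -0.06 and 0.08.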

How the data were processed

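Total RNA from both genotypes was column-purified, labelled indirectly and hybridised on yeast slides, per the labels. The authors deposited log ratios, read as log2, of 6912 features in 8 columns. Base, channel on top, background correction and normalization are not given in the sources used here. Of the features 3344 carry 1 symbol (3343 matched to the R64 RefSeq table, all 49 members among them), 387 several and 3181 none. Each column was centred on its median, scans and features of a gene were averaged, ratios turned and slides of a background averaged, giving 6695 units. An intercept was fitted with limma 3.58.1 in R 4.3.3 (lmFit, eBayes, two-sided, Benjamini-Hochberg over all units, adjusted p under 0.05). The prior had infinite degrees of freedom, so 1 common SD of 0.153 applied to all units. Strain and channel were tested on the 4 slides. P-values measure the spread between these samples, which may be technical. The tests were also run on simulated data, with an outcome not reported here. Residuals of each slide were shuffled over the units there, so spread shared between genes was not simulated. Figures used matplotlib 3.10.9. The members, gene lists and named genes (lowest 8, highest 5, largest 3 strain differences and channel effects, copies, textbook roles, and the extremes of other lists) were chosen with earlier results of these data known.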

Additional observations from a re-analysis of the deposited data

How the results depend on the processing

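In 22 of 24 alternatives 0 of 49 ribosomal protein genes passed. Some of these could not add a gene: leaving out RPP1, which was not measured, turning all ratios the other way, and a stricter cut-off. Updating the symbols gave 49 genes again, and the median over features left the values of the members unchanged. Genes passed in 2 alternatives. Removing the median of each print block, chosen after seeing the data, gave 2 genes: RPL3 (-0.36, limma adjusted p = 0.0127) and RPL16B (-0.36, limma adjusted p = 0.0153). The cause was not tested. With columns not turned, 46 of 49 passed with a median of 0.60, which is the channel effect by construction. Turned the other way, the median was 0.15 by construction. The median of -0.15 was otherwise between -0.18 and -0.08. As deposited it was -0.095, with all units at 0.06, so the distance between them was the same (-0.155). The median of BY4742 ran from -0.08 to 0.04 and that of BY4741 from -0.23 to -0.18. The stalk median (-0.15) was -0.10 as deposited and after quantile normalization, -0.0925 after scaling and -0.10 with the line on the channel effect subtracted. Leaving out each slide in turn gave medians of -0.18 to -0.09, of -0.22 to -0.08 for 40S and of -0.17 to -0.10 for 60S genes, with 40 to 47 of 49 genes below 0 and 0 called. A background with a slide left out has no value of its own. Strain differences numbered 5 with the faible columns and 0 in the other 5 alternatives. Channel effects numbered 43 to 46. The 117 units called over the whole table became 31 after quantile normalization, 31 after scaling, 73 in the fit of 4 slides, 1 without moderation of the spread and 3 to 184 when each slide was left out (3 without slide 19 or 21, 184 without slide 20). Yap1d and WT are paired within each slide by the ratio itself. Beyond this pairing, no further block across backgrounds was possible because their slides share no replicate number.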
